A study of Mus musculus with 6 samples.

Results

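The genes described are 9 markers of pericytes, listed by symbol, with no measured value in the rule, although the list was drawn up with earlier results of these data known: Rgs5, Kcnj8, Abcc9, Higd1b, Ndufa4l2, Cox4i2, Notch3, Cspg4 and Kcnmb1. Each matched 1 of the 52636 genes in the count table. They were followed across 8 deposited cell types, 9 deposited sub-clusters of the fibroblast types and 2 genotypes. The question was which cells, whatever their deposited name, expressed several of these genes together.

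RNA was counted in 25428 cells cultured from the retinal pigment epithelium (RPE) and choroid of male C57BL/6J mice aged 12 to 16 months. There were 3 Dram2 wt/wt samples, used as controls, and 3 Dram2 ko/ko samples, in which both copies of Dram2 carried a constitutive deletion. Dram2 ko/ko replicate 3 was the only sample of batch 2, and all others belonged to batch 1. All cells had been grown in culture before they were sequenced, so every value describes cultured cells and not the tissue itself. The 10x Genomics 3′ method was used, in which a unique molecular identifier (UMI) lets each molecule be counted once. Samples held 2140 to 6648 cells and 96808998 to 122746184 UMIs. Levels are given in CPM, the UMIs of a gene scaled to a common total of UMIs in the cells summed. Dram2 itself was at 33.4, 39.6 and 38.1 CPM in the Dram2 wt/wt samples and at 30.7, 28.3 and 30.1 CPM in the Dram2 ko/ko samples, but the 3′ reads lie outside the deleted part and do not check the genotype. Fibroblast-like cells made up 14.9% of Dram2 ko/ko replicate 1 and 1.82% to 5.13% of the other samples. The cells carry running identifiers in place of droplet barcodes, so barcodes shared between libraries could not be counted.

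Pericytes are the contractile cells that wrap capillaries and share their basement membrane with the endothelium. They are usually recognised by several genes at once, because each single marker is also used by other cells. Among the 9 genes, Rgs5 shortens signalling by G proteins, Kcnj8 and Abcc9 encode the pore and the sulfonylurea receptor of a potassium channel that opens when ATP falls, and Kcnmb1 is the accessory subunit of the calcium-activated BK potassium channel of smooth muscle. Ndufa4l2, Cox4i2 and Higd1b are tissue-restricted relatives of proteins of the mitochondrial respiratory chain. Notch3 is a receptor of mural cells, the name that covers pericytes and vascular smooth muscle cells, and Cspg4 encodes the NG2 proteoglycan, which pericytes share with glial precursors and other cells.

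By deposited cell type, no type held the highest level of all 9 genes. The summed level of Rgs5 was 67.0 CPM in Fibroblast (47.5 to 97.4 over 6 samples), 34.1 in Myeloid, 32.9 in Fibroblast proliferating, 20.8 in Fibroblast-like, 11.6 in Fibroblast 2, 8.44 in Pericyte, 7.80 in Endothelial and 6.51 in RPE. The ranges over samples of neighbours in this order overlapped throughout. Without Dram2 wt/wt replicate 2, which held 19 of the 28 Endothelial UMIs and 24 of the 45 Pericyte UMIs of Rgs5, the levels were 2.87 CPM in Endothelial and 4.67 CPM in Pericyte. Notch3 was likewise at its highest in Fibroblast, with 14.2 CPM, and at its lowest in Pericyte, with 1.5 CPM, or 0.67 CPM without Dram2 wt/wt replicate 2, which held 5 of its 8 UMIs there. Kcnj8 and Abcc9 stood apart in Fibroblast 2, at 22.6 and 6.73 CPM against 0.73 and 0.62 CPM in Fibroblast, the next type, with no overlap over samples. Cspg4 was at 207 CPM in Pericyte and at 48.5 CPM in Fibroblast proliferating, the next type, again with no overlap. Kcnmb1 was at 5.85 CPM in Endothelial and at 3.48 CPM in Fibroblast, but 10 of the 21 Endothelial UMIs came from Dram2 ko/ko replicate 1, without which that level was 3.47 CPM. Ndufa4l2 lay between 0 and 2.17 CPM and Cox4i2 between 1.11 and 8.62 CPM in all 8 types. Higd1b had 22 UMIs over all cells. The types come from clusters of these same cells, so differences between types are descriptions and were not tested.

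**Figure D1:**
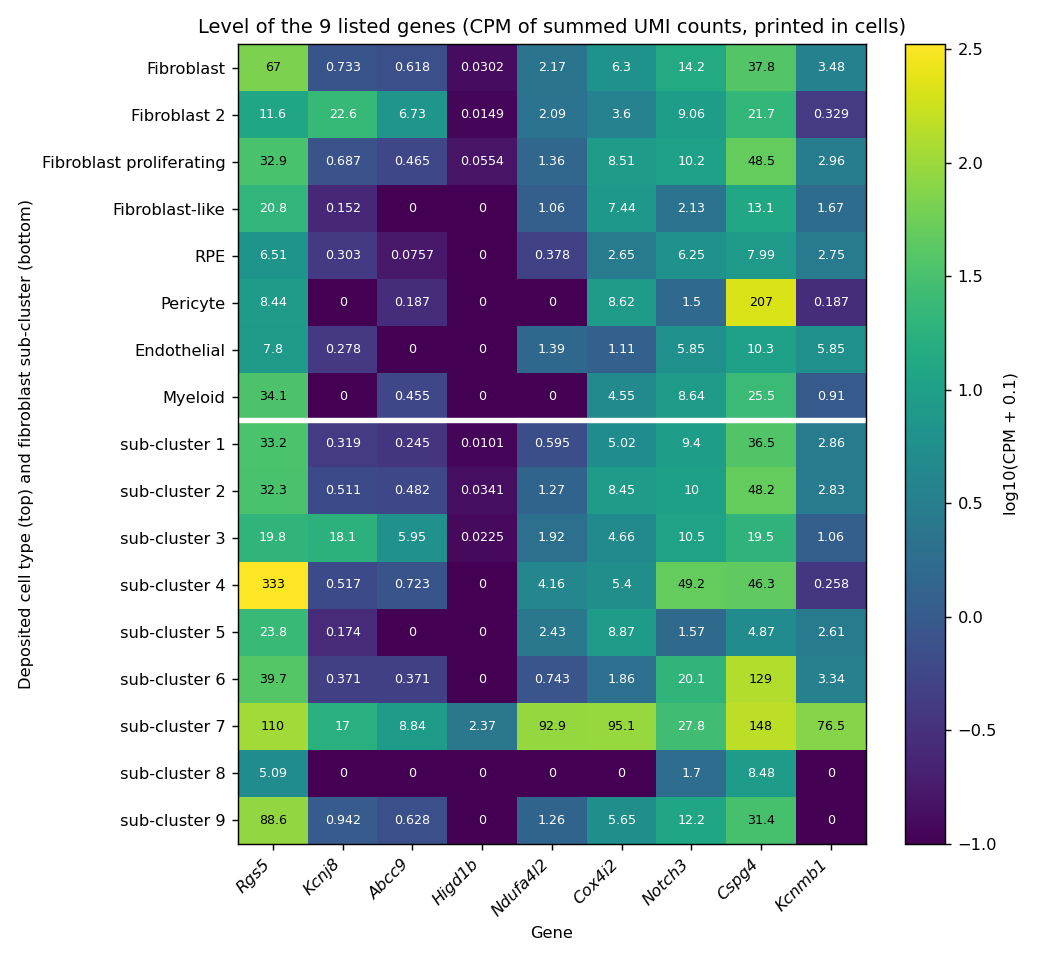
Level of the 9 genes in each deposited cell type (top) and each fibroblast sub-cluster (bottom), as CPM of the summed UMI counts, printed in each square and coloured on a log10(CPM + 0.1) scale. The row of sub-cluster 7 runs from 2.37 CPM for Higd1b to 148 CPM for Cspg4. The Pericyte row is high for Cspg4 (207 CPM) and at 0 for Kcnj8, Higd1b and Ndufa4l2.

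The 308 cells deposited as Pericyte thus carried 1 of the 9 markers at a high level. Cspg4 was at 239, 171 and 184 CPM in these cells of the Dram2 wt/wt samples and at 204, 221 and 173 CPM in those of the Dram2 ko/ko samples, and 84.7% of the cells had a UMI. Kcnj8, Ndufa4l2 and Higd1b had no UMI in any sample, which allows a level of up to 0.562 CPM and a share of up to 0.974% of cells with a UMI, and sets no limit on the share of cells that express them. Abcc9 and Kcnmb1 had 1 UMI each. Cox4i2 was at 8.62 CPM, with a UMI in 12.0% of the cells, the highest pooled level among the 8 types, although its values overlapped with those of the next type over samples. Rgs5 was present in 5.19% of the cells and reached 28.6 CPM in Dram2 wt/wt replicate 2, with 0 to 7.91 CPM in the other 5 samples. The same cells held the genes of the Schwann lineage, the glia of peripheral nerves. Sox10, its defining transcription factor, was at 176 CPM, the neurotrophin receptor Ngfr at 389 CPM and Foxd3 at 254 CPM, against 0.22, 0.43 and 0 CPM in sub-cluster 7. None of the 8 Schwann genes listed was at 0, and their summed level was 1107 CPM. The Schwann genes went against the label, and the cells are called here by their deposited name.

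Among the sub-clusters, all of which divide the deposited fibroblast types, sub-cluster 7 had the largest share of cells with several of the 9 genes. It had 214 cells, of which 185 were deposited as Fibroblast, 16 as Fibroblast 2, 12 as Fibroblast proliferating and 1 as Fibroblast-like. They came from every sample, with 53, 13 and 21 cells per Dram2 wt/wt sample and 26, 79 and 22 cells per Dram2 ko/ko sample, or 0.72% ± 0.59 and 0.99% ± 0.37 of all cells (SD, n = 3). Their median was 18980.5 UMIs per cell, near that of RPE cells (22905.5). Of the 9 genes, 6 had their highest sub-cluster level here (Abcc9, Higd1b, Ndufa4l2, Cox4i2, Cspg4 and Kcnmb1). For comparison, 9.85% of 26113 genes had their highest level in this sub-cluster.

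The 3 respiratory chain genes and the BK subunit were the most concentrated. Ndufa4l2 was at 86.9, 68.0 and 63.5 CPM in sub-cluster 7 of the Dram2 wt/wt samples and at 75.3, 64.0 and 231 CPM in the Dram2 ko/ko samples. Every sample thus lay far above the level in sub-cluster 4 (4.16 CPM), the next in order, and Dram2 ko/ko replicate 3 lay above all others. These 214 cells held 35.8% of all Ndufa4l2 UMIs. Cox4i2 was at 86.9, 71.7 and 77 CPM in the Dram2 wt/wt samples and at 89.9, 69.8 and 200 CPM in the Dram2 ko/ko samples, against 8.87 CPM in sub-cluster 5, the next. The same sample, the single one of batch 2, was the highest for both genes. Kcnmb1 was at 64.1, 94.4 and 65.4 CPM and at 93.3, 64.8 and 102 CPM, against 3.34 CPM in sub-cluster 6, with both genotypes spanning the same range. Higd1b had 11 of its 22 UMIs in sub-cluster 7, where 3.27% of the cells had a UMI and 2 of the samples had none. Its level there was 2.37 CPM, and it was at 0.034 CPM in sub-cluster 2, 0.022 CPM in sub-cluster 3 and 0.010 CPM in sub-cluster 1. The other sub-clusters had 0 UMIs, which allows up to 0.078 CPM in sub-cluster 4 and up to 5.09 CPM in sub-cluster 8, the shallowest.

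Cspg4 was less concentrated, since sub-cluster 7 held 2.68% of its UMIs. It was at 166, 125 and 133 CPM in sub-cluster 7 of the Dram2 wt/wt samples and at 136, 155 and 135 CPM in the Dram2 ko/ko samples. Its pooled level was 148 CPM there, 129 CPM in sub-cluster 6 and 36.5 CPM in sub-cluster 1, the largest sub-cluster. The values of sub-clusters 7 and 6 overlapped over samples.

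**Figure D2:**
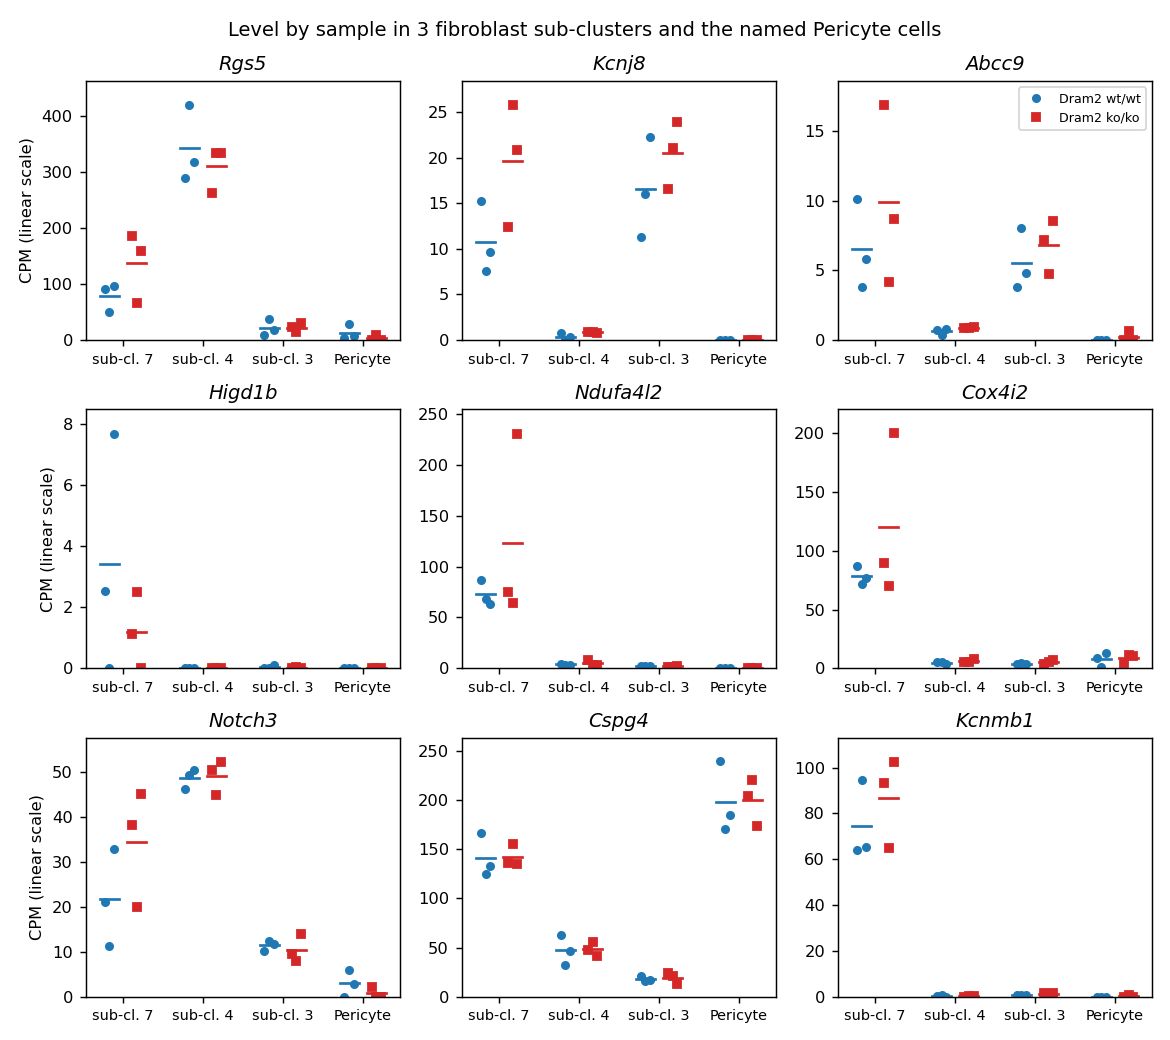
Level of each gene in CPM on a linear scale, 1 point per sample (circles Dram2 wt/wt, squares Dram2 ko/ko, lines the mean of 3 samples), in sub-clusters 7, 4 and 3 and in the cells deposited as Pericyte. Ndufa4l2, Cox4i2 and Kcnmb1 were high in sub-cluster 7 of every sample (63.5 to 231 CPM), Rgs5 was at its highest in sub-cluster 4, Kcnj8 and Abcc9 were shared by sub-clusters 7 and 3, and Cspg4 was high in sub-cluster 7 and Pericyte.

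The channel genes Kcnj8 and Abcc9 had a second and larger source. In sub-cluster 3, which held 3790 cells of which 2964 were deposited as Fibroblast 2, Kcnj8 was at 11.3, 16.0 and 22.3 CPM in the Dram2 wt/wt samples and at 16.5, 21.1 and 23.9 CPM in the Dram2 ko/ko samples. In sub-cluster 7 it was at 15.2, 7.55 and 9.62 CPM and at 12.4, 25.8 and 20.8 CPM, so the values overlapped. Abcc9 was at 3.80, 8.02, 4.80, 7.15, 4.72 and 8.55 CPM in sub-cluster 3, in the same order of samples, and at 10.1, 3.78, 5.77, 16.9, 4.15 and 8.68 CPM in sub-cluster 7. The pooled level of both genes was under 1 CPM in the other sub-clusters, except that their 0 UMIs in sub-cluster 8 allow up to 5.09 CPM. Owing to its size, sub-cluster 3 held 84.2% of all Kcnj8 UMIs and 69.3% of all Abcc9 UMIs, and sub-cluster 7 held 4.12% and 5.36%. In sub-cluster 3, Kcnmb1 was at 1.06, Ndufa4l2 at 1.92 and Myh11 at 11.5 CPM, while the 16 other pericyte genes summed to 894 CPM there, against 2256 CPM in sub-cluster 7 and 559 CPM in sub-cluster 1.

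Kcnj8 and Abcc9 are neighbours. On the mouse assembly GRCm38 (GENCODE annotation), Kcnj8 spans chr6:142564837-142571614 and Abcc9 spans chr6:142587862-142702315, both on the minus strand, with 16247 bases and 0 annotated genes between them. Each was the gene most like the other. Over 46 sums of a cell type in a sample, Pearson's r of log2(CPM + 1) between them was 0.95, the highest among 15303 genes for either, and over 49 sums of a sub-cluster in a sample it was 0.90, again the highest for either. These sums share libraries and depth, and the correlations are descriptions. Because their levels moved together, the sequence just before each start is shown. Both are from RefSeq (GRCm38.p6), read on the minus strand 5′ to 3′ and ending at the annotated start, chr6:142571615-142571864 for Kcnj8 and chr6:142702316-142702524 for Abcc9, with 41 bases next to the RefSeq start of Abcc9 left out because GENCODE places them inside the gene.
Kcnj8: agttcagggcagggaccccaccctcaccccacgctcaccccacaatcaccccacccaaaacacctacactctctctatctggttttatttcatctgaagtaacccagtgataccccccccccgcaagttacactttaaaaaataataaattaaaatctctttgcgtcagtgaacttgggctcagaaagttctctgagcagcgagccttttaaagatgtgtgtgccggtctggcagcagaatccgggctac
Abcc9: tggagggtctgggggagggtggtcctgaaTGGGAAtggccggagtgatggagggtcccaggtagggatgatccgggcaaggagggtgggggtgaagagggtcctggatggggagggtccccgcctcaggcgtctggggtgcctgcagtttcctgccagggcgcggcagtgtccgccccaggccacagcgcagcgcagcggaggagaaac
Capitals mark matches to 3 motifs searched on both strands of the 250 bases before the RefSeq start: the CArG box bound by serum response factor, TGGGAA, the core bound by the Notch partner RBPJ, and ACGTG, the core of the hypoxia response element. Abcc9 had 1 TGGGAA match, 221 to 216 bases before its RefSeq start, and Kcnj8 had none of the 3 motifs. Over 32851 RefSeq promoters, 21.6% held TGGGAA, 16.6% held ACGTG and 1.47% held a CArG box. A match describes letters and not a binding site.

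Rgs5 and Notch3 shared another peak, in sub-cluster 4. This sub-cluster had 1558 cells, 1543 of them deposited as Fibroblast. Rgs5 was there at 290, 420 and 317 CPM in the Dram2 wt/wt samples and at 263, 335 and 334 CPM in the Dram2 ko/ko samples, and 78.3% of the cells had a UMI. Every one of these values was above the highest value in sub-cluster 7, where Rgs5 was at 91.1, 49.1 and 96.2 CPM and at 187, 66.5 and 160 CPM. Notch3 was at 46.1, 49.3 and 50.5 CPM and at 50.3, 44.8 and 52.1 CPM in sub-cluster 4, and at 21.1, 11.3, 32.7, 38.2, 19.9 and 45.1 CPM in sub-cluster 7, so its values overlapped in 1 sample at the upper end. Sub-cluster 4 held 40.7% of all Rgs5 UMIs and 24.0% of all Notch3 UMIs. It was otherwise unlike sub-cluster 7, with Kcnmb1 at 0.26, Kcnj8 at 0.52, Cox4i2 at 5.40 and Higd1b at 0 CPM. The Kcnmb1 value rested on 10 UMIs and was 0.13 to 0.34 CPM when 1 sample was left out. Genes of smooth muscle were low in it, with Acta2 at 1809 CPM against 12038 CPM in sub-cluster 7 and Myh11 at 2.51 against 309 CPM. Notch3 was the second most like gene of Rgs5 over the sub-cluster sums (r = 0.82, 49 sums), after Angptl2 (r = 0.83), but was not among the leading 3 over the cell type sums, which were Tnfrsf11b, Vnn1 and Pcolce (r = 0.80 to 0.81, 46 sums).

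For the same reason the sequences before Rgs5 (gene at chr1:169655501-169695813, plus strand, sequence chr1:169655251-169655500) and Notch3 (gene at chr17:32120820-32166852, minus strand, sequence chr17:32166891-32167140) are shown, again from RefSeq and 5′ to 3′ toward the start.
Rgs5: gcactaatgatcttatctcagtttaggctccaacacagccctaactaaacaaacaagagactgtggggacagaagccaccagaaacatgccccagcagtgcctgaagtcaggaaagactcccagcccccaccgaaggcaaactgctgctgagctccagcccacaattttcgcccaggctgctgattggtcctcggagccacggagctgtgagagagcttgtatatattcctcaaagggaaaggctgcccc
Notch3: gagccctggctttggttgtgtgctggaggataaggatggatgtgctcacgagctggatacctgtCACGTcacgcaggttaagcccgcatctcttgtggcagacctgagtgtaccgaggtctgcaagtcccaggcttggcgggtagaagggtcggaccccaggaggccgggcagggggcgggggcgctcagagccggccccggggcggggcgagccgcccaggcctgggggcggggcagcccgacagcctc
The capitals in Notch3 are a match to ACGTG on the opposite strand. Rgs5, Kcnmb1 and Cspg4 held none of the 3 motifs in this window. Of the 9 genes, 6 had an entry in the RefSeq table, and Higd1b, Ndufa4l2 and Cox4i2 did not. Kcnmb1 (chr11:33963013-33973641) lies over Kcnip1 on the other strand and shared 5.71% of its 3′ sequence with other genes, the largest share among the 9.

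Cells in which several of the genes were detected were counted after each cell was thinned to 8000 UMIs, so that deep and shallow cells could be compared. This left out 3401 shallower cells, 1822 from the Dram2 wt/wt samples and 1579 from the Dram2 ko/ko samples, and kept 22027. Of the cells kept, 10.4% had a UMI of 2 or more of the 9 genes and 0.32% (70 cells) had a UMI of 4 or more. Sub-cluster 7 held 42 of those 70 cells (60%) and 12 of the 15 cells with 5 or more genes, although it supplied 201 of the 22027 cells. Within sub-cluster 7, 77.1% of cells had 2 or more genes, 48.3% had 3 or more and 20.9% had 4 or more. By sample, the share with 3 or more was 45.8%, 41.7% and 42.9% in Dram2 wt/wt and 56.0%, 41.1% and 77.3% in Dram2 ko/ko. Every sample therefore showed the pattern, with Dram2 ko/ko replicate 3 the highest.

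In sub-cluster 4, 37.5% of cells had 2 or more genes, 8.71% had 3 or more and 0.41% had 4 or more. Sub-cluster 3 had 7.73%, 1.17% and 0.15%, and sub-cluster 1 had 7.34%, 0.68% and 0.02%. Sub-cluster 2, most of whose cells were deposited as Fibroblast proliferating, had 9.86%, 1.49% and 0.22%, and its 13 cells with 4 or more genes were the largest number outside sub-cluster 7. Of the cells deposited as Pericyte, 8.63% had 2 or more genes and 0 of 255 had 3 or more, which allows a share of up to 1.18% of cells with 3 or more detected. Myeloid cells had 5.08% with 2 or more and 0 of 59 with 3 or more. None of 171 Endothelial cells had 2 or more, which allows a share of up to 1.75%. Sub-cluster 6 had 19.7% with 2 or more, 4.23% with 3 or more and 1.41% (1 cell) with 4 or more, but 406 of its 477 cells were too shallow to be kept. RPE cells, an epithelium in which these genes are not usually used, had 1.31% (15 cells) with 2 or more, and 0.86% to 1.59% when 1 sample was left out. They serve as a comparison, since no background level was measured. Without thinning, 198 of 214 cells of sub-cluster 7, 53 of 308 cells deposited as Pericyte and 8 of 288 Endothelial cells had 2 or more of the genes. Of the cells deposited as Pericyte, 5 then had 3 or more and 2 had 4 or more. Over all cells, 139 had 5 or more of the genes, 46 had 6 or more and 17 had 7 or more, of which 56, 31 and 12 lay in sub-cluster 7, and none was deposited as Pericyte.

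**Figure D3:**
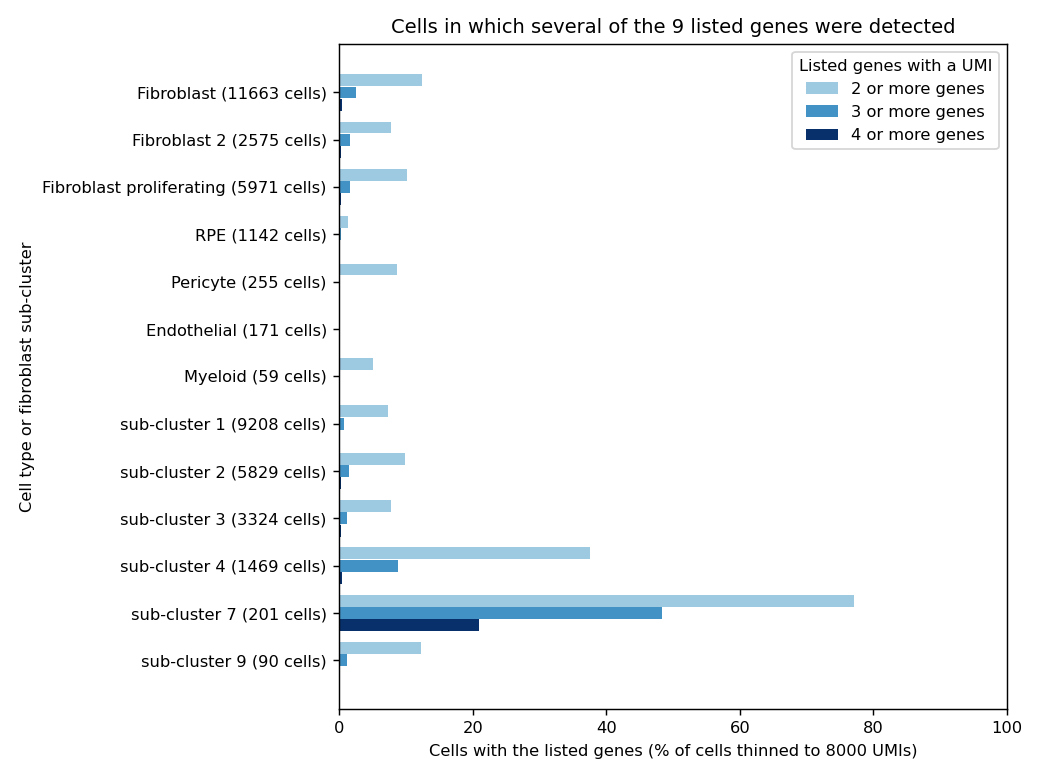
Percentage of cells, thinned to 8000 UMIs, in which 2, 3 or 4 or more of the 9 genes had a UMI, for the deposited cell types and fibroblast sub-clusters with the number of cells kept in parentheses. Sub-cluster 7 had 77.1%, 48.3% and 20.9%, sub-cluster 4 had 37.5%, 8.71% and 0.41%, and no cell deposited as Pericyte had 3 or more.

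At this depth, 8 of the 9 genes were each found in under 50% of the cells of sub-cluster 7. After thinning, Cspg4 was found in 65.7% of its 201 cells, Cox4i2 in 44.3%, Rgs5 in 41.3%, Kcnmb1 in 33.3%, Ndufa4l2 in 28.4%, Notch3 in 17.4%, Kcnj8 in 9.95%, Abcc9 in 4.98% and Higd1b in 1.49%. In RPE cells the same shares were 6.22% for Cspg4, 1.93% for Cox4i2, 2.98% for Rgs5, 2.45% for Kcnmb1, 0.26% for Ndufa4l2, 3.77% for Notch3 and 0% for the rest. Within sub-cluster 7, some pairs of the genes were found together more often than others. The pairs given here are examples and not all pairs. Kcnj8 was found in 16 of the 89 cells with Cox4i2 (18.0%) and in 3.57% of the 112 cells without it. Ndufa4l2 was found in 38.2% of the cells with Cox4i2 and in 20.5% of those without. Rgs5 showed the opposite with Cspg4, being found in 36.4% of cells with Cspg4 and in 50.7% of those without. The cells share libraries, Cox4i2 and Ndufa4l2 were both highest in Dram2 ko/ko replicate 3, and these shares were not tested.

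The close relatives of the 3 respiratory chain genes did not follow them. Ndufa4, the widely used relative of Ndufa4l2, was at 628 CPM in sub-cluster 7 and 1184 CPM in sub-cluster 1. Cox4i1, the common form of Cox4i2, was at 1510 and 1654 CPM, and Higd1a was at 24.1 and 22.6 CPM. Ndufa4l2 and Cox4i2 are known to respond to low oxygen. Of 12 genes of the hypoxia response listed, 7 had their highest sub-cluster level in sub-cluster 7, among them Vegfa at 273 against 106 CPM in sub-cluster 1, the glucose transporter Slc2a1 at 110 against 56.3 CPM and Pdk1 at 7.33 against 1.57 CPM. Other genes of the list did not show this, as Ndrg1 was at 1.94 against 3.34 CPM and Car9 had 1 UMI in sub-cluster 7. The 12 genes summed to 2433 CPM in sub-cluster 7, 1998 in sub-cluster 3, 1522 in sub-cluster 1 and 1109 in sub-cluster 4. In Endothelial they summed to 3455 CPM, with Ndufa4l2 at 1.39 and Cox4i2 at 1.11 CPM. A part of low oxygen in these levels was not tested.

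Partners of the channel genes were nearly absent. Kcnma1, the pore of the BK channel that Kcnmb1 attends, had 39 UMIs over all cells and 1 in sub-cluster 7, and Kcnj11 and Abcc8, the pore and receptor of the pancreatic form of the ATP-sensitive channel, had 1 and 11 UMIs over all cells. Lrrc26 had none. Among the relatives of Rgs5, Rgs4 and Rgs16 were at 22.0 and 347 CPM in sub-cluster 7 against 0.88 and 160 CPM in sub-cluster 1, while Rgs2 was at 110 CPM in sub-cluster 3 and at 7.11 CPM in sub-cluster 7. Of the Notch pathway, Heyl, a target of Notch3 in mural cells, was at 8.19 CPM in sub-cluster 7 and at most 0.43 CPM in sub-clusters 1, 3 and 4. The ligand Jag1 was at 76.5 CPM in sub-cluster 7 and 257 CPM in Pericyte, and Jag2 was at 0 CPM in sub-cluster 7 and 5.89 CPM in sub-cluster 4. Hes1 was at 217, 243, 293 and 257 CPM in sub-clusters 1, 3, 4 and 7.

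Of 16 further genes known from pericytes, 10 had their highest sub-cluster level in sub-cluster 7. Pdgfrb, the receptor that recruits pericytes to vessels, was at 315 CPM in sub-cluster 7 (220 to 418 over samples), 112 in sub-cluster 3, 76.5 in sub-cluster 1, 68.9 in sub-cluster 4 and 27.7 in Pericyte. Sub-cluster 6 was close behind for Pdgfrb (310 CPM) and for Mcam (213 CPM). The intermediate filament gene Des was at 708 CPM in sub-cluster 7 and 234 in sub-cluster 3, the transcription factor genes Ebf1 and Foxs1 at 308 and 228 CPM against 79.4 and 70.6 CPM in sub-cluster 1, the connexin gene Gja4 at 11 against 0.21 CPM and the integrin gene Itga7 at 30.4 against 2.17 CPM. Mcam was at 234 CPM in sub-cluster 7 and 288 CPM in Pericyte. Not all were present, as Vtn and Atp13a5, which mark pericytes of the brain, had no UMI in sub-cluster 7, and Vtn had 5 UMIs over all cells. Tbx18 was at 152 CPM in sub-cluster 7 and 172 CPM in sub-cluster 3.

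Genes of smooth muscle were high in the same cells. Myh11, the smooth muscle myosin heavy chain, was at 309 CPM in sub-cluster 7 (264 to 450 over samples) against 48.5 CPM in sub-cluster 1, Mylk at 461 against 156, Lmod1 at 242 against 125 and Myl9 at 1602 against 955 CPM. Of 12 smooth muscle genes, 6 had their highest level in sub-cluster 7. Acta2 and Tagln did not set it apart, at 12038 and 9513 CPM against 12176 and 9926 CPM in sub-cluster 1, and Cnn1 was lower, at 302 against 588 CPM. The listed genes therefore do not separate pericytes from vascular smooth muscle cells, and no cell type name is given to sub-cluster 7. The 8 fibroblast genes summed to 16682 CPM in sub-cluster 7 and 4668 CPM in sub-cluster 1, and they differed among themselves. Mgp was at 14259 CPM in sub-cluster 7 against 2470 CPM in sub-cluster 1, whereas Dcn was at 182 against 466, Lum at 13.8 against 46.6 and Pdgfra at 11.9 against 52.7 CPM. Of the collagen genes, Col3a1 was at 687 against 211, Col1a1 at 839 against 703 and Col1a2 at 670 against 687 CPM, and Thy1 was at 18.3 against 31.5 CPM.

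Lists of markers of other cells were summed in sub-cluster 7. The 9 endothelial genes summed to 412 CPM (259 to 549 over samples) against 440 CPM in sub-cluster 1 and 9097 CPM in Endothelial. Nearly all of it was Emcn (391 CPM), and Cldn5 was at 0 and Pecam1 and Cdh5 at 0.22 CPM. The 8 myeloid genes summed to 7.54 CPM against 15062 in Myeloid, with C1qa, C1qb and Ptprc at 0, and the 8 Schwann genes summed to 7.76 CPM with 4 of them at 0. The melanocyte, RPE, photoreceptor and T cell lists summed to 3.23, 1.08, 0.86 and 0.22 CPM, and the 5 proliferation genes to 36.6 CPM against 42.1 CPM in sub-cluster 1.

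The genes most like the others over the sub-cluster sums were Sncg, Sparcl1 and Inpp4b for Ndufa4l2 (r = 0.89 to 0.90). For Cox4i2 they were Apold1, Cend1 and Arhgdib (0.85 for each), and for Kcnmb1 Adap2, Tslp and Esam (0.87 to 0.90). For Notch3 they were Fam53b, Fam20c and Slc7a2 (0.89 to 0.92), and for Cspg4 Mir22hg, Mcam and Gm26532 (0.89 to 0.90). Over the cell type sums, which dilute sub-cluster 7 among 12651 Fibroblast cells, the leading r was 0.67 for Ndufa4l2, 0.71 for Cox4i2 and 0.73 for Kcnmb1.

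Between genotypes, the first comparison summed all cells of each sample. Kcnj8 was at 2.35, 1.52 and 2.09 CPM in Dram2 wt/wt and at 3.66, 4.42 and 3.36 CPM in Dram2 ko/ko, so that every Dram2 ko/ko sample was above every Dram2 wt/wt sample. This came to 0.97 as a log2 fold change, with SE 0.21 and an adjusted p = 0.137 by voom-limma. Abcc9 was at 1.04, 0.91 and 0.61 CPM and at 1.76, 1.30 and 1.39 CPM, also without overlap (log2 fold change 0.84, SE 0.23, adjusted p = 0.264, voom-limma). Kcnmb1 was at 2.69, 2.50 and 2.10 CPM and at 3.98, 2.75 and 3.86 CPM, and the nearest samples of the groups were at 2.69 and 2.75 CPM (log2 fold change 0.54, SE 0.18, adjusted p = 0.410, voom-limma). These 3 were the members whose groups did not overlap, all higher in Dram2 ko/ko. Of all 22580 genes tested, 11.5% did not overlap and 4.2% were higher in every Dram2 ko/ko sample. With the cells of sub-cluster 7 left out, Kcnmb1 was at 2.05, 2.28 and 1.83 CPM in Dram2 wt/wt and at 3.15, 2.08 and 3.34 CPM in Dram2 ko/ko. Its groups then overlapped (exact two-sided permutation p = 0.2, n = 3).

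None of the 8 members tested was called at an adjusted p under 0.05 by voom-limma, where percent called over all genes was 0, while 4 of them, and 1583 genes in all, had an unadjusted p under 0.05. The edgeR test called 0 members and DESeq2 called 1, Kcnj8 (adjusted p = 0.002, DESeq2), where it called 378 of 22580 genes (1.67%), 20 of them higher in Dram2 ko/ko. Ndufa4l2 was at 1.94, 1.23 and 1.35 CPM and at 2.33, 1.70 and 2.37 CPM (log2 fold change 0.53, SE 0.22, adjusted p = 0.662, voom-limma). Cox4i2, Rgs5, Notch3 and Cspg4 had log2 fold changes of 0.25, -0.23, -0.20 and -0.05, with adjusted p from 0.913 to 0.981. Leaving out 1 sample gave 0.08 to 0.35 for Cox4i2 (lowest without Dram2 wt/wt replicate 3), -0.53 to -0.04 for Rgs5 (nearest 0 without Dram2 wt/wt replicate 2) and -0.35 to -0.09 for Notch3 (nearest 0 without Dram2 ko/ko replicate 2). Higd1b was too low to be tested. Since nothing states how the samples of a genotype were obtained apart, p-values measure the spread between these samples. In sums of all cells, fewer cells of a type and less RNA per cell cannot be told apart.

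**Figure D4:**
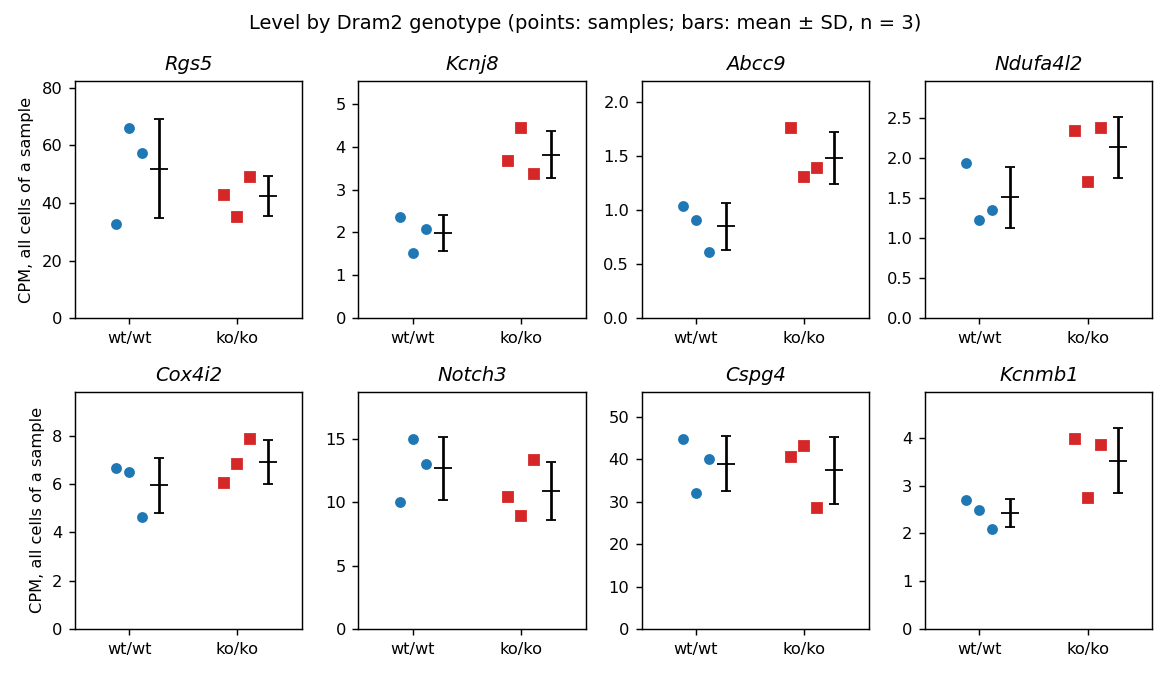
Level in CPM over all cells of each sample for the 8 members tested, on linear axes that start at 0 (circles Dram2 wt/wt, squares Dram2 ko/ko, bars the mean ± SD, n = 3). The groups did not overlap for Kcnj8, Abcc9 and Kcnmb1, all higher in Dram2 ko/ko, but those of Kcnmb1 did without the cells of sub-cluster 7. None of the 8 was called by voom-limma, while DESeq2 called Kcnj8.

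Most Kcnj8 and Abcc9 UMIs of each sample came from few cells. Sub-clusters 3 and 7 held 83.7% to 91.1% of the Kcnj8 UMIs and 66.7% to 87.6% of the Abcc9 UMIs of a sample. Their cells made up 18.6%, 9.76% and 10.6% of the Dram2 wt/wt samples and 21.6%, 20.4% and 14.7% of the Dram2 ko/ko samples, with overlap. With these cells left out, the Dram2 wt/wt mean of Kcnj8 was 0.32 ± 0.13 CPM and its Dram2 ko/ko mean 0.47 ± 0.04 CPM (SD, n = 3, exact two-sided permutation p = 0.2), and Abcc9 was at 0.29 ± 0.09 and 0.39 ± 0.12 CPM (exact p = 0.3, n = 3). The smallest p that 3 samples against 3 allow is 0.1. Within sub-cluster 3, the log2 fold changes of Kcnj8 and Abcc9 were 0.41 and 0.39 (adjusted p = 0.955 for both, voom-limma). Within Fibroblast 2 they were 0.39 and 0.38 (adjusted p = 0.887 for both). These values rested in part on Dram2 wt/wt replicate 1, without which they were 0.12 and 0.09 in sub-cluster 3 and 0.04 and 0.07 in Fibroblast 2, and they reached 0.63 to 0.68 when other samples were left out. The part of the share of these cells in the whole-sample values was not tested further.

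The remaining comparisons called no member by voom-limma either. In Fibroblast, 0 of 8 were called (percent called over all genes 0.00503) and 4 had an unadjusted p under 0.05, as did 1427 of 19886 genes. Kcnj8, Abcc9 and Kcnmb1 again did not overlap there, with log2 fold changes of 0.92, 0.81 and 0.60 (adjusted p = 0.357, 0.263 and 0.463, voom-limma). All were higher in Dram2 ko/ko, as were 4.57% of all genes. Fibroblast also held 811 cells of sub-cluster 3 and 185 of sub-cluster 7, and their part in these values was not tested. In Fibroblast 2, 0 of 7 were called (0.222) and 0 had an unadjusted p under 0.05. Ndufa4l2 was lower there in every Dram2 ko/ko sample, as were 6.6% of all genes. In Fibroblast proliferating, 0 of 8 were called (0.624) and 2 had an unadjusted p under 0.05, Kcnj8 and Kcnmb1, as did 1229 of 18113 genes. Kcnmb1 and Ndufa4l2 were higher there in every Dram2 ko/ko sample, as were 4.76% of all genes. In Fibroblast-like 0 of 2 were called (0), in RPE 0 of 3 (0), in Pericyte 0 of 1 (0.0118), and in Endothelial no member was tested. edgeR and DESeq2 called no member in any of these cell types. For Cspg4 in Pericyte the log2 fold change, 0.02, was below its SE of 0.17 (adjusted p = 0.991, voom-limma).

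In Myeloid, 0 of 2 were called (0.0296) and Rgs5 had an unadjusted p under 0.05. Its levels were 52.4 and 29.6 CPM in the 2 Dram2 wt/wt samples with 10 or more cells and 108 and 2.00 CPM in the 2 Dram2 ko/ko samples, which lay on either side (log2 fold change -2.86, SE 0.85, adjusted p = 0.459, voom-limma). Only 18 of the 84 Myeloid cells had an Rgs5 UMI, and without Dram2 ko/ko replicate 3, which left 1 Dram2 ko/ko sample, the fold change was 1.40.

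Within sub-cluster 7, all 7 members tested had a positive log2 fold change, from 0.01 for Cspg4 to 0.63 for Kcnj8. The median over all 7711 genes was 0.0008. The members were measured in the same samples, so their signs are not independent. An unadjusted p under 0.05 was found for 557 of the 7711 genes and for 0 members. None of the 7 members was called (percent called over all genes 0.402), and 0 were called by edgeR and by DESeq2. Among them Rgs5, with 0.58 and SE 0.35 (adjusted p = 0.836, voom-limma), was called when Dram2 ko/ko replicate 2 was left out (1.09, adjusted p = 0.027, voom-limma), where 44 of 7390 genes were called (0.595%), 21 of them higher in Dram2 ko/ko. The values of Ndufa4l2 (0.39, SE 0.37) and Cox4i2 (0.36, SE 0.30) rested on Dram2 ko/ko replicate 3, and without it that of Ndufa4l2 was -0.08 and that of Cox4i2 0.01. In sub-cluster 3, 0 of 8 were called (0.00634), and Kcnmb1 was higher in every Dram2 ko/ko sample (1.6, 0.95 and 1.46 against 0.60, 0.87 and 0.72 CPM, log2 fold change 0.86, adjusted p = 0.801, voom-limma), where 4.09% of all genes were. In sub-cluster 4, 0 of 5 were called (0.722), with log2 fold changes of -0.14 for Rgs5 and 0.01 for Notch3. Kcnj8 and Abcc9, at 20 and 28 UMIs, were too low to be tested there and were higher in every Dram2 ko/ko sample. Of the genes tested there, a set with higher counts that leaves out both, 5.54% were. Other sub-clusters were not tested between genotypes. Among them, the groups did not overlap for Ndufa4l2 and Kcnmb1 in sub-cluster 2, both higher in Dram2 ko/ko. The same held for Ndufa4l2 in sub-cluster 5, at 14 UMIs in all, and for Kcnmb1 in sub-cluster 6, at 9 UMIs in all. Nor did the groups overlap for Higd1b in sub-cluster 1, lower in Dram2 ko/ko at 3 UMIs in all. The share over all genes was not counted in these sub-clusters, so these cases cannot be set against it. In sub-clusters 3, 4 and 7, groups without overlap made up 10.1%, 11.1% and 12.3% of the genes tested, counting both directions. None of the genes in the other lists was called by voom-limma in any of the comparisons tested.

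The share of cells with 2 or more of the genes overlapped between genotypes. After thinning, 9.73%, 11.5% and 11.1% of cells had 2 or more of the 9 genes in Dram2 wt/wt and 10.3%, 9.36% and 10.7% in Dram2 ko/ko, a mean difference of -0.66 percentage points (exact two-sided permutation p = 0.4, n = 3). With 3 or more genes the means were 1.73% ± 0.25 and 2.20% ± 0.26 (SD, n = 3, exact p = 0.2), the other way round. With 4 or more, a cut-off that was not planned and rests on 70 cells, they were 0.25% ± 0.06 and 0.44% ± 0.19 (exact p = 0.1, n = 3). All 3 Dram2 ko/ko samples were then above all 3 Dram2 wt/wt samples, at the smallest p this design allows. With Cspg4 and Notch3 left out of the list, cells with 2 or more of the remaining genes made up 2.07%, 2.16% and 1.88% of Dram2 wt/wt cells against 2.60%, 2.41% and 3.30% of Dram2 ko/ko cells, again without overlap (exact p = 0.1, n = 3).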

How the data were processed

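The authors aligned 10x 3′ libraries with cellranger and deposited UMI counts per gene and cell, which count reads over exons, with a table of cell types, fibroblast sub-clusters, genotype and batch. The submitters' processing notes name Cell Ranger 3.1.0 and GRCm38. The authors normalised the counts, integrated both batches and clustered the cells in Seurat. Here the deposited counts were summed per sample and cell type or sub-cluster (10 or more cells, 2 or more samples per genotype) and tested with voom-limma (limma 3.58.1) after filterByExpr and TMM scaling (edgeR 4.0.16), with Benjamini-Hochberg adjustment over all genes tested and a threshold of 0.05. Total counts per sample were 96808998 to 122746184. A count of 0 was given an upper limit of 3 counts, for counting error only. Shares of cells were compared at 8000 UMIs and tested by exact permutation. No doublet caller was run. The tests were checked on simulated counts. Alternatives were edgeR quasi-likelihood, DESeq2 1.42.0, other scalings and filters, batch, a replicate block, and leaving out each sample. Genes named outside the 9 are members of the lists, or the 3 genes with the highest Pearson's r with a member. The 9 genes and the lists were chosen with earlier results of these data known. Some genes of the Schwann list are not reported here and were left out of its sums.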

Additional observations from a re-analysis of the deposited data

Results flagged for a closer look

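Ndufa4l2 moved in opposite directions in a pair of fibroblast types. In Fibroblast proliferating it was at 1.11, 1.22 and 0.87 CPM in the Dram2 wt/wt samples and at 2.52, 1.26 and 1.32 CPM in the Dram2 ko/ko samples, a difference of means of 0.633 CPM with every Dram2 ko/ko sample higher. In Fibroblast 2 it was at 2.43, 3.12 and 2.40 CPM and at 1.34, 2.00 and 1.93 CPM, a difference of -0.892 CPM with every Dram2 ko/ko sample lower. Dram2 ko/ko replicate 1 was the farthest from the Dram2 wt/wt samples in both types, and without it the log2 fold changes were 0.28 in place of 0.58 and -0.35 in place of -0.59. The difference between the types was not tested, and neither change was called within its type (adjusted p = 0.890 and 0.851, voom-limma).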

How the results depend on the processing

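Of 431 log2 fold changes under alternatives, 403 kept direction and side of the threshold, 23 changed sign and 5 passed the threshold. Of 236 percentages of cells with 2 or more listed genes, 84 moved, mostly with the number of genes or the depth asked for, as in sub-cluster 7 (77.1%, 20.9% with 4 or more genes, 92.5% with no thinning) and Pericyte (8.63%, 0% and 17.2%). With DESeq2, 1 listed gene was called over whole samples (Kcnj8, 0.97, with 378 of 22580 genes called), and with no filter on low counts 1 was called in Myeloid (Rgs5, -2.22, with 59 of 18014 genes called). Leaving out 1 sample gave 0 to 1 called in Myeloid (Rgs5, -2.91 without Dram2 wt/wt replicate 2, with 47 of 7001 genes called, and -3.62 without replicate 3, with 83 of 7943, each leaving 1 Dram2 wt/wt sample that is assumed to vary like the others) and 0 to 1 in sub-cluster 7 (Rgs5, 1.09 without Dram2 ko/ko replicate 2, with 44 of 7390). The genotype difference in the share of cells turned positive with 3 or more genes (0.473 percentage points), with 4 or more (0.193) and without Cspg4 and Notch3 (0.734). With batch as a covariate the sign changed for Cspg4 over whole samples (0.15), Rgs5 in Myeloid (1.40), Notch3 in sub-cluster 4 (-0.039), and Cox4i2 (-0.0063) and Ndufa4l2 (-0.091) in sub-cluster 7. It also changed for Rgs5 in Myeloid with DESeq2 (0.43), Notch3 in sub-cluster 4 with no filter (-0.011) and Cspg4 in sub-cluster 7 with library size alone (-0.027). Leaving out 1 sample gave ranges across 0 for Cspg4 over whole samples (-0.20 to 0.15), in Pericyte (-0.069 to 0.16) and in sub-cluster 7 (-0.070 to 0.17), Rgs5 in Myeloid (-3.77 to 1.40) and sub-cluster 4 (-0.26 to 0.0068), Notch3 in sub-cluster 4 (-0.040 to 0.051) and Ndufa4l2 in sub-cluster 7 (-0.078 to 0.74). The causes were not tested. The replicate numbers did not pair the samples (r = 0.02, -0.59 and 0.03 for equal numbers). With the replicate block no listed gene was called over whole samples (0 called, Kcnj8 0.96), and Rgs5 in Myeloid changed sign (0.47). Batch 2 held a single Dram2 ko/ko sample, so batch and genotype could not be compared within it. Sub-cluster 7 had 13 cells in its smallest sample, and Higd1b had 22 UMIs, which limits their precision.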
